A study of Mus musculus with 4 samples.

Results

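Heat shock proteins are chaperones that keep other proteins folded, and this account covers 10 genes for those of the cytosol and the mitochondria. They are Hspa1a, Hspa1b, Hspa8, Hsp90aa1, Hsp90ab1, Hspd1, Hspe1, Hspb1, Dnajb1 and Hsph1. Probe sets were taken by gene symbol, but the genes were chosen with earlier results of these data known. Of the 10 genes, 9 had a probe set named for them, and these 9 held 20 of the 22690 probe sets of the array, 12 of them of types that may read more than 1 transcript or gene. Hsp90ab1 had none in the annotation used and was not analysed here. Hspa1a and Hspd1 were read by 1 probe set each, and the other 7 genes by several.

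The study set Sca-1 knockout mice against wild-type littermates in mammary tumors and in mammary gland, on the C57BL/6 background. The first 2 groups were tumors of knockout mice (KO tumor) and of wild-type mice (WT tumor), raised with 15 mg of MP, a depot progestin placed under the skin, and then 4 weekly gavages of 1 mg of the carcinogen DMBA in cottonseed oil. The other 2 were the gland of knockout mice (KO gland) and of wild-type mice (WT gland) at 6 weeks of age, whose own labels name no carcinogen. All mice were female, had borne no litters and ate standard chow, and no age is given for the tumors, so tumor growth, age and treatment cannot be told apart. Sca-1 is a surface protein used to mark stem and progenitor cells, and the labels say no more of the allele than that it is a knockout. Each group was 1 array of RNA pooled from 5 mice.

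Hsp70 proteins bind stretches of unfolded chain. Hspa8 is the form present in nearly all cells, and Hspa1a and Hspa1b are the near-identical forms induced by stress. Dnajb1, a J-domain protein, hands clients to Hsp70 and speeds its ATP cycle, and Hsph1 resets that cycle by exchanging nucleotide. Hsp90aa1 is a cytosolic Hsp90, which holds kinases and steroid hormone receptors, the progesterone receptor among them, in a form that can be activated. Hspd1 and Hspe1 are the barrel (Hsp60) and the lid (Hsp10) of the chamber that folds proteins inside mitochondria. Hspb1 is a small heat shock protein that holds unfolding proteins without using ATP and is known in breast epithelium and breast tumors. Many of these genes are switched on by the factor Hsf1, which binds heat shock elements, inverted repeats of GAA.

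Values are the deposited linear signals, and differences were taken as log2(signal + 27.3), a scale that understates differences of dim genes. A gene stands for its brightest probe set, and it was compared where the highest of its 4 signals reached 168.1, the median of all values. All 9 genes passed, each on all 4 arrays, as did 8286 of 12393 genes in all. With 1 array per group there is no replicate error and no test, and a difference below is one between 2 arrays. The only gauge of error was the gap between the 2 brightest probe sets of a gene, over 2764 genes. Its median was 0.18 on the log2 scale for the tumor genotypes, 0.24 for the gland genotypes, 0.49 for WT tumor against WT gland and 0.45 for KO tumor against KO gland. That gap covers neither mice nor pools.

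The arrays differed in more than the labels. The 3' to 5' ratio of the beta-actin control probe sets was 1.29 in KO tumor, 1.23 in WT tumor, 1.61 in KO gland and 2.35 in WT gland. The luminal epithelial gene Krt8 had 9811 in KO tumor and 9258 in WT tumor, and 4987 in KO gland and 6398 in WT gland, so mammary epithelium was present on all 4. The summed signal of 12 skeletal muscle markers was 939 in KO tumor and 473 in WT tumor, against 59723 in KO gland and 62629 in WT gland. That of 7 white adipocyte markers was 3883 in KO tumor and 5178 in WT tumor, against 41911 in KO gland and 45046 in WT gland. In such bulk tissue, fewer cells of a type and less RNA per cell cannot be told apart. No marker of any list was at 0 on any array.

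The plot of signals shows every probe set of the 9 genes on the 4 arrays.

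**Figure D1:**
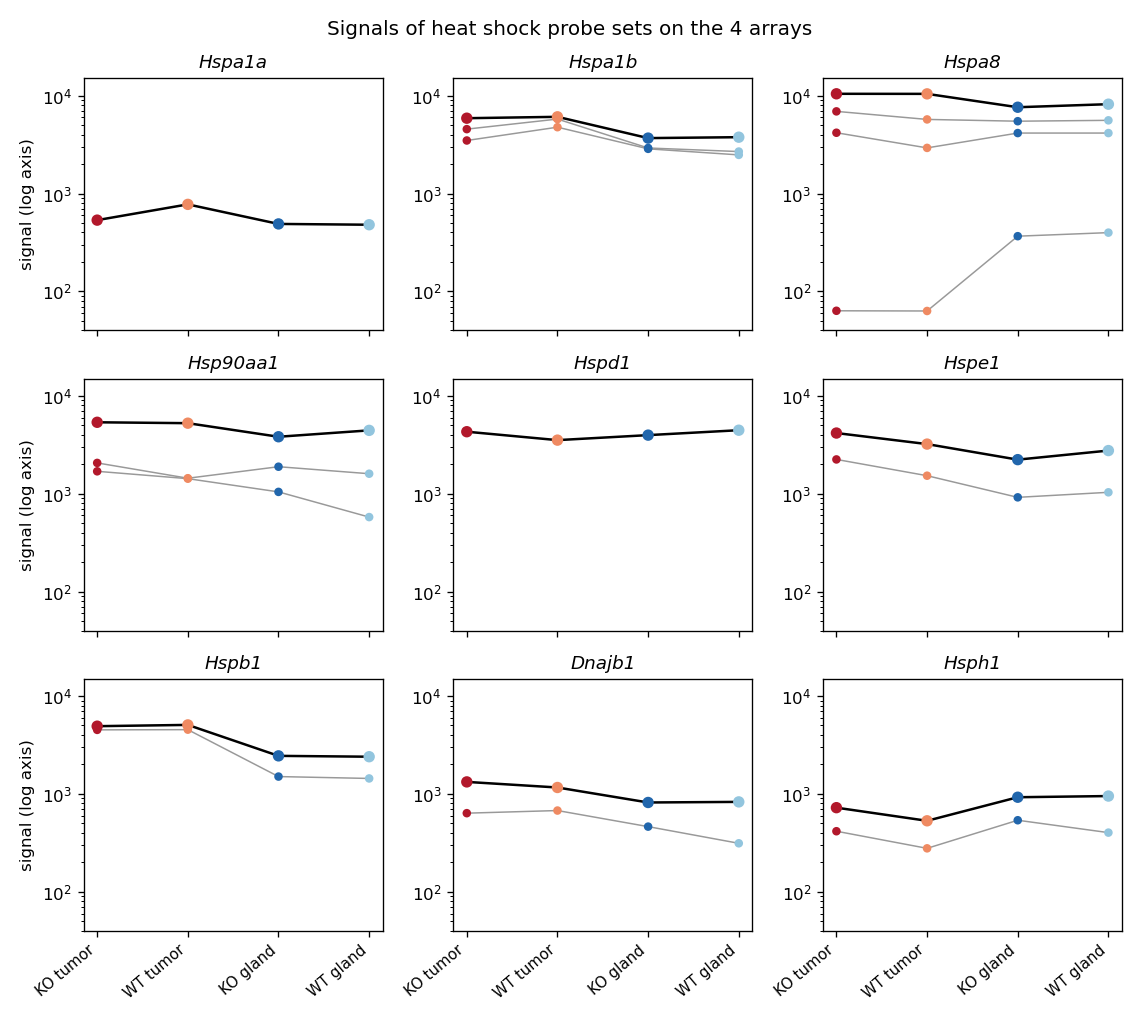
Signal (log axis) of each probe set of the 9 measured heat shock genes in KO tumor, WT tumor, KO gland and WT gland, 1 array each. Black lines join the probe set that stands for the gene and grey lines join its others. The Hspb1 probe sets sit at 4511 to 5070 in the tumors and 1439 to 2448 in the glands, while the dimmest Hspa8 probe set runs the other way.

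The main difference of this family lay between tumor and gland, in Hspb1. Its brighter probe set had signals of 4920 in KO tumor and 5070 in WT tumor, against 2448 in KO gland and 2399 in WT gland. Its other probe set had 4511 in KO tumor and 4534 in WT tumor, against 1504 in KO gland and 1439 in WT gland. Both tumors lay above both glands on both probe sets, and the genotypes hardly differed within a tissue. By the brighter probe set Hspb1 was 2.10-fold higher in WT tumor than in WT gland. In the knockout the log2 difference was 0.999, just short of the 2-fold line, and by the other probe set the factors were 2.96 in the knockout and 3.11 in wild type. Under quantile normalization and cyclic loess the brighter probe set fell short of 2-fold in both genotypes, and its direction did not turn.

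The windows before 4 of these genes are shown because Hspb1 and Hspa1b were higher in both tumors and Hspe1 sits beside Hspd1. This choice was made with values seen and leaves out Dnajb1, which was also higher in both tumors. Each is the 150 bases before the annotated start, from RefSeq on GRCm38.p6, on the strand of the gene. Capitals mark matches to GAANNTTC or TTCNNGAA, a pair of inverted heat shock units, with overlapping matches merged.
Hspb1, chr5:135887769-135887918, plus strand: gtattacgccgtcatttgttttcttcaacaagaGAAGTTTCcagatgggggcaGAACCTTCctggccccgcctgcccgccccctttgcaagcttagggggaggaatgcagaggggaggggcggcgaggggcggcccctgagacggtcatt
Hspa1b, chr17:34959239-34959388, minus strand: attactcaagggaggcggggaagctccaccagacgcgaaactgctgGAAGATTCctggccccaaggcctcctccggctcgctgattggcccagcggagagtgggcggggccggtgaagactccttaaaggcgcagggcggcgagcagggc
Hspa1a, chr17:34972157-34972306, minus strand: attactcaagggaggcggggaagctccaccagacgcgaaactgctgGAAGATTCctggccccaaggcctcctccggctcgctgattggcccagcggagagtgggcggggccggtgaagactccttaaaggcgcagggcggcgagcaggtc
Hspe1, chr1:55087998-55088147, plus strand: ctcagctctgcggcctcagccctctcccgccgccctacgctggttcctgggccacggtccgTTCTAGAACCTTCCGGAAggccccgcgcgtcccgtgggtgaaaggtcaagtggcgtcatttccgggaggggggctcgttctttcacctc

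Hspb1 held 2 separate pairs, the first beginning at position -117 counted back from the start. Hspa1a and Hspa1b held the same pair at position -104, and over 250 bases their windows were identical at 247. Hspe1 held 3 overlapping pairs from position -89. These bases are shared with a window of Hspd1, which is read from the other strand, so both genes were counted with them. Windows of 250 bases were listed for 7 of the 10 genes, and 6 of the 7 held at least 1 pair in some window. Dnajb1, higher in both tumors, was the exception with 0 pairs. Hsph1, lower in both tumors by its brighter probe set, held 1. Counted over windows, 7 of the 10 listed for these genes held a pair, beside 12.8% of all 32851 such windows. Given the likeness and the shared bases above, these windows are not all separate sequences. The longer form of 3 alternating units at the same spacing occurred before Hspe1 and Hspd1 and in 0.466% of all windows. A match is a run of letters and was not tested as a site.

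Of the stress-induced Hsp70 genes, Hspa1b was also higher in both tumors. The brightest Hspa1b probe set had 5882 in KO tumor and 6075 in WT tumor, against 3683 in KO gland and 3763 in WT gland. That is 1.59-fold in the knockout and 1.61-fold in wild type. On its other 2 probe sets WT tumor lay above KO tumor and the glands were lowest: 1 of them had 4549 in KO tumor and 5762 in WT tumor, against 2918 in KO gland and 2684 in WT gland. The tumors lay above the glands on all 3 probe sets of Hspa1b. Hspa1a had 535 in KO tumor and 775 in WT tumor, against 489 in KO gland and 480 in WT gland, so WT tumor stood apart and the other 3 arrays lay close together. Hspa1a and Hspa1b are so alike that a probe set named for one may also read the other.

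Hspa8, the constitutive Hsp70, gave no single answer, because its 4 probe sets disagreed. The brightest had 10442 in KO tumor and 10424 in WT tumor, against 7613 in KO gland and 8179 in WT gland. The dimmest had 63.4 in KO tumor and 63.1 in WT tumor, against 367 in KO gland and 399 in WT gland. It was 4.34-fold lower in KO tumor and 4.71-fold lower in WT tumor than in the gland of the same genotype, while the brightest was 1.37-fold and 1.27-fold higher. The sign of the brightest also turned under cyclic loess in the knockout.

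Of the partners of Hsp70, Dnajb1 had the higher signals in tumor and Hsph1 the higher ones in gland. Dnajb1 had 1327 in KO tumor and 1163 in WT tumor, against 818 in KO gland and 829 in WT gland, or 1.60-fold in the knockout and 1.39-fold in wild type. Its dimmer probe set had 636 and 676 in KO and WT tumor, against 463 and 313 in KO and WT gland. Both tumors were above both glands on both probe sets. Hsph1 had 724 in KO tumor and 531 in WT tumor, against 925 in KO gland and 951 in WT gland. It was 1.27-fold lower in the knockout, where median centring turned the sign, and 1.75-fold lower in wild type. Its other probe set had 416 in KO tumor and 278 in WT tumor, against 538 in KO gland and 402 in WT gland. There the KO tumor overlapped the glands and the WT tumor was lowest on both.

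Hsp90aa1 was higher in both tumors by its brightest probe set, but its probe sets disagreed in size. The brightest had 5367 in KO tumor and 5256 in WT tumor, against 3819 in KO gland and 4438 in WT gland. The factor was 1.40 in the knockout and 1.18 in wild type. A second probe set was 2.40-fold higher in WT tumor than in WT gland (1425 and 577) and 1.61-fold higher in KO tumor than in KO gland (1694 and 1044). The third differed by -0.15 in wild type and 0.13 in the knockout on the log2 scale.

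The mitochondrial pair split. Hspe1 had 4167 in KO tumor and 3214 in WT tumor, against 2229 in KO gland and 2759 in WT gland. Its other probe set had 2240 in KO tumor and 1528 in WT tumor, against 918 in KO gland and 1034 in WT gland. On both, KO tumor was highest and KO gland lowest. Hspe1 was thus 1.86-fold higher in KO tumor than in KO gland, 2.40-fold by the other probe set, and 1.16-fold and 1.47-fold higher in WT tumor than in WT gland. Hspd1 had 4299 in KO tumor and 3528 in WT tumor, against 3968 in KO gland and 4455 in WT gland. Its log2 difference was -0.33 in wild type and 0.11 in the knockout, where quantile normalization and cyclic loess turned the sign. The barrel gene thus lay within a narrow range on the 4 arrays while the lid gene spread more widely.

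Counted over genes, 1 of the 9 was at least 2-fold higher in WT tumor than in WT gland and 0 were lower, where 13.1% of the 8286 genes were higher and 16.7% lower. At 1.5-fold the counts were 3 higher (Hspb1, Hspa1b and Hspa1a; 23.6% of all genes) and 1 lower (Hsph1; 27.4%). In KO tumor against KO gland 0 of the 9 passed 2-fold, where 12.6% of all genes were higher and 18.0% lower. At 1.5-fold 4 were higher (Hspb1, Hspe1, Dnajb1 and Hspa1b; 23.4%) and 0 lower (28.7%). At 2-fold these counts by the brightest probe set lie near or below the shares of all genes. Over all 20 probe sets, 2 were at least 2-fold higher in KO tumor than in KO gland (12.6% of 12320 probe sets) and 1 was lower (18.6%). In wild type 5 were higher (14.2%) and 1 was lower (16.5%), the 5 being both of Hspb1 and a dimmer one each of Hspa1b, Hsp90aa1 and Dnajb1. The median log2 difference of the 9 genes was 0.49 in the knockout and 0.35 in wild type, beside -0.04 and -0.03 over all genes. It stayed positive under the 9 alternatives run, but was 0.17 and 0.06 under cyclic loess. A list of control genes, Rpl13a, B2m and Actb among them, had 9 measured. Their medians were 0.51 in the knockout, with 7 positive, and 0.25 in wild type, with 6 positive. A shift of this size was thus not particular to the heat shock genes. Markers of several cell types moved with this comparison. The 7 white adipocyte and 12 skeletal muscle markers were all past 2-fold lower in the tumors of both genotypes. Basal and myoepithelial markers were higher, 4 of 7 past 2-fold in the knockout and 5 of 7 in wild type, with 1 of 7 lower in each, and their summed signal was 26055 in KO tumor and 27957 in WT tumor, against 8534 in KO gland and 8590 in WT gland. Luminal markers were past 2-fold higher for 4 of 7 in the knockout and 3 of 7 in wild type, with sums of 43755 in KO tumor and 39439 in WT tumor, against 20432 in KO gland and 23911 in WT gland. Macrophage and neutrophil markers were higher for 1 of 7 and lower for 1 of 7 in the knockout, and higher for 5 of 7 in wild type. Keratinising markers were past 2-fold higher for 2 of 7 and lower for 1 of 7 in the knockout, and higher for 7 of 7 in wild type. Cell cycle genes were higher for 11 of 13 in the knockout and 10 of 13 in wild type. Immediate early genes, which respond within minutes to stress and handling, were split, with 4 higher and 3 lower of 9 in the knockout and 2 higher and 2 lower in wild type. The part of any of these in the heat shock differences was not tested.

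**Figure D2:**
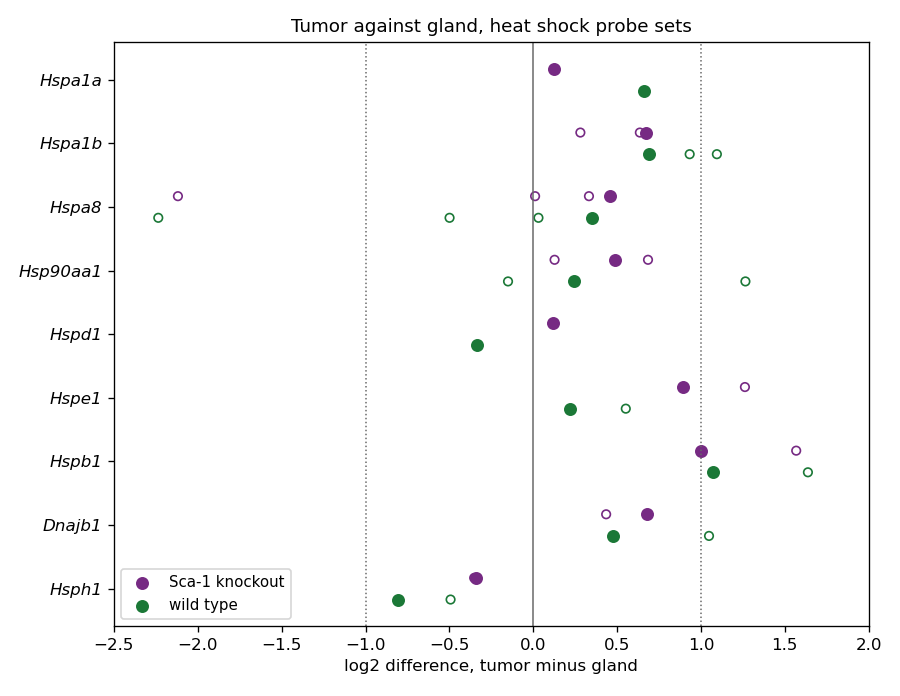
Log2 difference, tumor minus gland, of each probe set in Sca-1 knockout (purple, upper) and wild type (green, lower). Filled points are the probe set that stands for the gene, open points its others, and dotted lines mark 2-fold. The filled Hspb1 points sit near 1 (below it under quantile normalization and cyclic loess) and the open ones at 1.57 in the knockout and 1.64 in wild type, and 1 Hspa8 probe set sits near -2.

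The genotypes were closer. In the tumors none of the 9 genes differed by as much as 1.5-fold in either direction, where 12.1% of all genes did (and 4.07% by 2-fold), and none of the 20 probe sets, against 12.3% of 12320 probe sets above the floor. The log2 differences ran from -0.51 to 0.43 with a median of 0.03, beside 0.01 over all genes. At the low end was Hspa1a (535 in KO tumor, 775 in WT tumor), 1.43-fold lower in KO tumor. All 3 Hspa1b probe sets were also lower in KO tumor, by -0.05 to -0.45 on the log2 scale. The brightest differed least.

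At the high end was Hsph1, with 724 in KO tumor and 531 in WT tumor, 1.34-fold higher in KO tumor, and 1.45-fold by its other probe set. Hspe1 was 1.29-fold and 1.46-fold higher in KO tumor by its 2 probe sets, and Hspd1 1.22-fold. Hspa8 and Hsp90aa1 each had 1 probe set with a factor of about the same size, 1.42 and 1.43, but their brightest differed by 0.00 and 0.03 on the log2 scale, and that of Hspa8 changed sign under all 3 other scalings. Hspb1 differed by -0.04 and -0.01. Dnajb1 went both ways, 0.19 and -0.09.

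Other genes moved on the same 2 arrays. Cell cycle genes were higher in KO tumor, 9 of 13 past 2-fold, with a summed signal of 14749 in KO tumor and 7527 in WT tumor, where 2.14% of all genes were that much higher. Of 7 keratinising markers 6 were past 2-fold lower, against 1.93% of all genes, and the summed signal of the 8 measured was 1368 in KO tumor and 7514 in WT tumor. The fibroblast markers summed to 15282 in KO tumor and 24347 in WT tumor, with 1 of 7 past 2-fold lower. Of the immediate early genes 0 of 9 passed 2-fold between these tumors. The part of these in the heat shock differences was not tested.

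In the glands none of the 9 genes differed by 1.5-fold, where 7.14% of all genes did (and 1.38% by 2-fold). The log2 differences ran from -0.30 to 0.03, with a median of -0.04 beside 0.01 over all genes. With median centring the median over all genes became -0.23 and that of the 9 genes -0.29, or -0.06 relative to it. Hspe1, the lowest, had 2229 in KO gland and 2759 in WT gland, 1.24-fold lower in KO gland, and 1.12-fold by its other probe set. Hspd1 was 1.12-fold lower. Neither turned sign under any of the 9 alternatives, but Hspd1 was at -0.03 under quantile normalization and -0.06 under cyclic loess.

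The other gland values were small or split between probe sets. Of 20 probe sets 1 passed 1.5-fold, where 9.72% of all did: a dimmer one of Hsp90aa1, with 1044 in KO gland and 577 in WT gland, 1.77-fold higher. The brightest of that gene went the other way, 3819 in KO gland and 4438 in WT gland. Dnajb1 had a log2 difference of -0.02 by 1 probe set and 0.53 by the other, and Hsph1 -0.04 and 0.40. In Dnajb1 and Hsph1 the dimmer probe set was the one higher in KO gland. In Hsp90aa1 both dimmer ones were, the other having 1888 in KO gland and 1601 in WT gland. Hspa1a (0.03, negative under all 3 other scalings) and Hspb1 (0.03, negative under median centring) hardly differed. B and T cell markers were higher in KO gland, 6 of 9 past 2-fold against 1.12% of all genes, with a summed signal of 5155 in KO gland and 2183 in WT gland. The 3' to 5' ratio of beta-actin was lower there, 1.61 in KO gland and 2.35 in WT gland. The part of either was not tested.

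**Figure D3:**
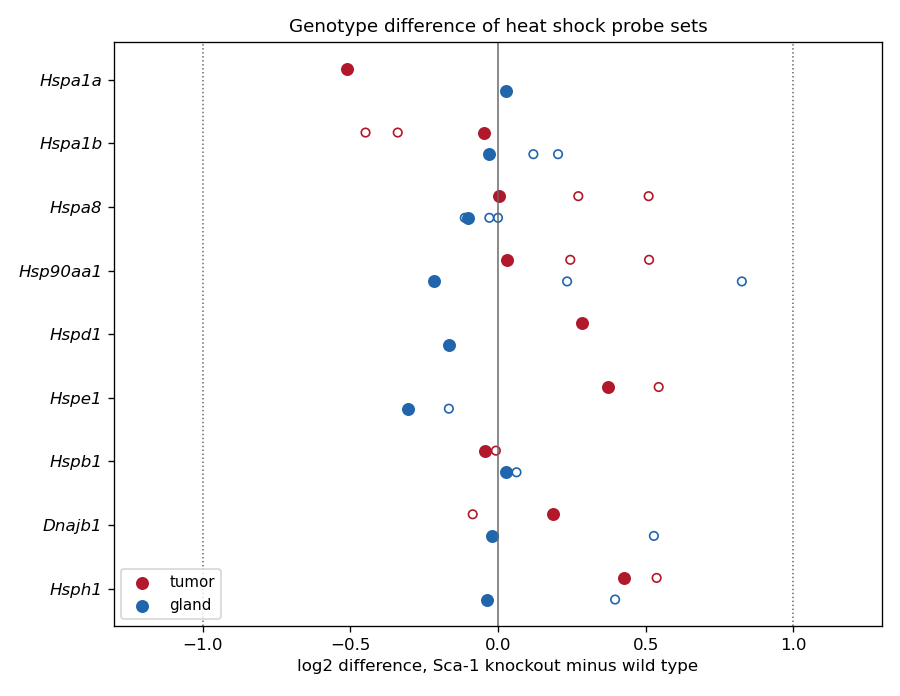
Log2 difference, Sca-1 knockout minus wild type, of each probe set in tumor (red, upper) and gland (blue, lower). Filled points are the probe set that stands for the gene, open points its others, and dotted lines mark 2-fold. Every point lies inside 2-fold, and Hspd1 and Hspe1 lie right of 0 in tumor and left of it in gland.

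The mitochondrial pair thus lay on opposite sides of 0 in the 2 tissues, but not clearly so in gland. There Hspd1, by its 1 probe set, and Hspe1, by its other probe set, were each at -0.17. That is under the gland gap of 0.24 between probe sets. Taking the genotype difference in tumor less that in gland, Hspe1 had 0.68 (0.71 by its other probe set) and Hspd1 0.45. Hsph1 had 0.47, and Hspa1a had -0.54. The 9 genes had a median of 0.20 with 6 above 0, where 50.3% of all genes were above 0 and the median was 0.00. The 9 control genes had a median of 0.14, also with 6 above 0. The median of the heat shock genes was -0.02 when a gene was averaged over its probe sets, so it did not hold for the family. Hspe1, Hspd1, Hsph1 and Hspa1a kept their signs under every alternative that could be run for them.

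The same was asked of lists of related chaperones, chosen with earlier results of these data known. The mitochondrial list holds import, folding and quality control proteins, and all 14 were measured. In KO gland 12 of 14 were negative in sign against WT gland (47.7% of all genes), with a median of -0.15. In KO tumor 9 of 14 were positive against WT tumor (7 to 8 under the other scalings, and 51.8% of all genes), with a median of 0.04. The difference of differences was above 0 for 12 of 14, median 0.36, and it was above 0 for 11 to 13 of 14 under the 3 other scalings. Hspa9, the mitochondrial Hsp70, had 2162 in KO tumor and 1628 in WT tumor, and 2502 in KO gland and 3205 in WT gland. Its difference of differences was 0.76, and it is also counted with the other Hsp70 genes below. Afg3l1, a subunit of an inner membrane protease, was 0.06 in tumor and -0.78 in gland on the log2 scale. Clpp, a matrix protease, differed by 0.00 in tumor and -0.54 in gland, and Trap1, the mitochondrial Hsp90, by -0.06 and -0.09. No gene of the list passed 2-fold between genotypes in either tissue as scaled here, and under quantile normalization 1 was 2-fold lower in KO gland. Yme1l1, another inner membrane protease, had 881 in KO tumor and 562 in WT tumor, and 346 in KO gland and 322 in WT gland. It and Afg3l1 passed 2-fold higher in KO tumor against KO gland, 2 of 14, where 12.6% of all genes did. Timm44, an import protein, passed 2-fold lower in WT tumor against WT gland, 1 of 14, where 16.7% of all genes did. Markers of brown fat, a tissue rich in mitochondria, were lower in KO gland, 2 of 4 past 2-fold, where 0.253% of all genes were. Over the 5 measured they summed to 3331 in KO gland and 6032 in WT gland. In the tumors the sums were 248 in KO tumor and 229 in WT tumor. The difference of differences of these brown fat markers was above 0 for 4 of 4, median 1.07. In both tumors 0 of the 5 reached the floor, so only their gland part can be read. There they moved with the mitochondrial list, Hspe1 and Hspd1. Luminal markers were positive for 7 of 7 in KO tumor against WT tumor and negative for 5 of 7 in KO gland. Their difference of differences was above 0 for 6 of 7, median 0.32. Cell cycle genes had 13 of 13 above 0, but were positive in both tissues. The part of any of these was not tested.

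The cytosolic counterpart of the Hsp60 chamber is TRiC, a ring that folds actin and tubulin, fed by prefoldin. Of 12 measured subunits 10 were positive in sign in KO tumor against WT tumor (median 0.16), where 51.8% of all genes were. In KO gland against WT gland 11 were negative (median -0.14), where 47.7% of all genes were, with 8 negative under quantile normalization and cyclic loess. The difference of differences was above 0 for 10 of 12, median 0.33, and for 9 to 12 of 12 under the other scalings. It is not particular to chaperones, since the median was 0.32 for the luminal markers and 0.33 for the cell cycle genes. Cct4 had 4718 in KO tumor and 3767 in WT tumor, and 3407 in KO gland and 4209 in WT gland. Against gland the list was positive for 12 of 12 in the knockout, median 0.63, where 48.3% of all genes were positive. In wild type it was positive for 9 of 12, median 0.35, where 48.2% of all genes were. In the knockout 3 of 12 were at least 2-fold higher, Pfdn1, Cct5 and Cct7 (12.6% of all genes), and in wild type 1 of 12, Pfdn1 (13.1%). Cct5 had 5670 in KO tumor and 4688 in WT tumor, against 2476 in KO gland and 2764 in WT gland. Under quantile normalization and cyclic loess 10 of 12 were positive in the knockout, and 1 passed 2-fold under cyclic loess.

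**Figure D4:**
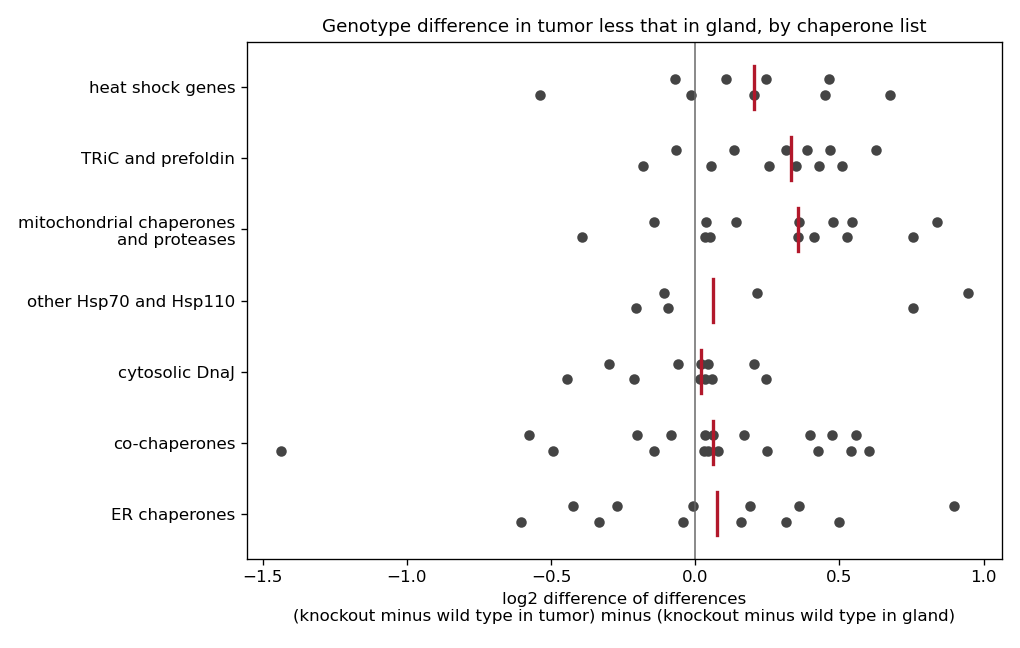
Log2 genotype difference (knockout minus wild type) in tumor less that in gland, 1 point per gene above the floor, by chaperone list. Red bars are list medians, and points are shifted up or down only to keep them apart. Medians are 0.33 for TRiC and prefoldin and 0.36 for the mitochondrial list, and those of the cytosolic DnaJ (0.02) and ER (0.08) lists turn negative under quantile normalization and cyclic loess.

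Among the other Hsp70 and Hsp110 genes, 6 of 7 measured were above the floor and 0 passed 2-fold between genotypes. Hspa4, an exchange factor of the Hsph1 family, had 1498 in KO tumor and 1112 in WT tumor, and 1748 in KO gland and 2524 in WT gland, a difference of differences of 0.94. Like Hsph1 it was lower in WT tumor than in WT gland, 2.24-fold. Hspa12b, a distant Hsp70 known from endothelium, was past 2-fold lower in both tumors, with 25.8 in KO tumor and 22.1 in WT tumor, against 194 in KO gland and 166 in WT gland. Against gland, 2 of 6 were at least 2-fold lower in wild type (16.7% of all genes) and 1 of 6 in the knockout (18.0%).

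Small heat shock proteins related to Hspb1 were mostly those known from muscle. Cryab (alpha B-crystallin) was also higher in the tumors, with 3767 in KO tumor and 4114 in WT tumor, against 1250 in KO gland and 1359 in WT gland, a log2 difference of 1.57 in the knockout and 1.58 in wild type. Hspb8, a partner of Bag3 in autophagy, went the other way, with 506 in KO tumor and 334 in WT tumor, against 973 in KO gland and 971 in WT gland. Hspb3 and Hspb7 were under the floor on all arrays. Cryab and Hspb1 were higher on the arrays where the basal, myoepithelial and luminal markers were higher and the muscle and fat markers lower, and the part of these was not tested.

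Of the cytosolic J-domain proteins other than Dnajb1, 0 of 11 passed 2-fold in any of the 4 comparisons as scaled here. In KO tumor against KO gland 1 did under median centring, quantile normalization or an offset of 1. The largest differences lay in that comparison, -0.999 for Dnajb5 and 0.92 for Dnajc2 on the log2 scale. In wild type these were -0.70 and 0.72. Dnaja1 had 3470 in KO tumor and 3534 in WT tumor, against 3258 in KO gland and 3396 in WT gland. Of the J-domain genes 8 of 11 were negative in KO tumor against WT tumor (median -0.18), where 48.1% of all genes were. The lowest was Dnajb4, with 989 in KO tumor and 1277 in WT tumor, and it was also lower in KO gland, with 843, than in WT gland, with 1106.

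Of 19 co-chaperones of Hsp70 and Hsp90, 1 passed 2-fold between genotypes. Fkbp5, an Hsp90-bound immunophilin that steroid hormones are known to induce, had 503 in KO tumor and 1062 in WT tumor, and 1353 in KO gland and 1022 in WT gland. It was 2.05-fold lower in KO tumor, where 1.93% of all genes were that much lower, and 1.32-fold higher in KO gland. With the offset at the median of all values it fell short of 2-fold. Its paralog Fkbp4, another Hsp90-bound immunophilin, had 967 in KO tumor and 856 in WT tumor, and 513 in KO gland and 605 in WT gland, so Fkbp4 was higher in the tumors while Fkbp5 was lowest in KO tumor. Stip1, which bridges Hsp70 and Hsp90, had 949 in KO tumor and 844 in WT tumor, against 546 in KO gland and 513 in WT gland. Bag3, a stress-induced partner of Hsp70, had 1027 in KO tumor and 1105 in WT tumor, against 865 in KO gland and 960 in WT gland. Bag2 was past 2-fold higher in the tumors of both genotypes, with 533 in KO tumor and 518 in WT tumor, against 207 in KO gland and 188 in WT gland. Unc45a, a myosin chaperone, passed 2-fold higher in KO tumor against KO gland (501 and 203), and Cdc37, which brings kinases to Hsp90, in WT tumor against WT gland (2382 and 1176). Fkbp5 was also past 2-fold lower in KO tumor against KO gland. In that comparison 2 of 19 were at least 2-fold higher (12.6% of all genes) and 1 of 19 lower (18.0%). In WT tumor against WT gland 2 of 19 were higher (13.1%) and 0 lower (16.7%).

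Of the heat shock factors, Hsf1 was not analysed here. Hsf2 was under the floor on all 4 arrays, with 80.0 in KO tumor and 50.8 in WT tumor, against 0.9 in KO gland and 1.0 in WT gland. Hsbp1, which binds Hsf1 and dampens it, had 3569 in KO tumor and 4458 in WT tumor, against 2338 in KO gland and 2415 in WT gland.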

How the data were processed

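RNA of 4 groups, 1 array each, was measured on Affymetrix arrays after biotin labelling, per the labels' protocols. The authors deposited 1 intensity value per probe set by steps on which the labels are silent. Once its lowest and highest 2% were dropped, each array had a mean of 500, so arrays had been scaled. Probe sets were named from the platform annotation, with symbols brought up to date by gene identifier (20364 of 20393 probe sets with 1 symbol matched). A further 691 had several symbols and 1606 were unlisted, and these were not used, nor were control probe sets. Values were used as log2(signal + 27.3), the offset being the lower quartile of all values. No test or p-value was possible, and precision is limited by how few arrays there are. Calls are differences of at least 2-fold (1.5-fold as a second rule). The members and lists were chosen with earlier results of these data known. The rule for naming wider-list genes gave the 3 with the largest difference per comparison plus 10 fixed ones. The text names those past 2-fold and a few others, a further choice made with values seen, and gives markers as list sums. Dnaja1, Fkbp4, Hspb3, Hspb7 and Krt8 were singled out after their values were seen. The 9 alternatives varied offset, scaling, probe set choice and floor. On simulated data for KO gland against WT gland (7450 genes), 23 of 50 genes changed 2-fold and 50 of 50 changed 4-fold passed 2-fold, and 0 of 7250 unchanged ones. The simulated noise was small and set by choice, not taken from these arrays. The 0 of 7250 is therefore no measure of false calls on them. Python 3.11.15, pandas 2.3.3 and limma 3.58.1 (quantile and cyclic loess) were used.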

Additional observations from a re-analysis of the deposited data

Results flagged for a closer look

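Hspe1, the lid of the mitochondrial chamber, had genotype differences of opposite sign in the 2 tissues, each larger, by its brighter probe set, than the median gap between probe sets of a gene. The log2 difference, knockout minus wild type, was 0.37 in tumor and -0.30 in gland, which gives a difference of 0.68. The gland gap is 0.24, and the gland difference was smaller than that by the other probe set (-0.17), under quantile normalization and cyclic loess (-0.22 each) and with the mean over all probe sets, so it does not stand clear of that gap. The difference was not tested, since each group is 1 array. It was between 0.57 and 0.91 over the 9 alternatives.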

How the results depend on the processing

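No paired analysis was possible because each group is 1 array. Hspb1, the member past 2-fold as reported, kept its sign under the 8 alternatives that could be run for it. Hspa8 turned sign without probe sets that may be shared, with -2.24 in WT tumor against WT gland and -2.12 in KO tumor against KO gland, beside 0.35 and 0.45 as reported. Between genotypes 0 members passed 2-fold under all 9, in either tissue. Hspb1 alone passed 2-fold in WT tumor against WT gland, and this count was 0 under quantile normalization and 0 under cyclic loess. Without probe sets that may be shared it was again 1, but that gene was Hspa8, 2-fold lower by its dim probe set, since Hspb1 and Hsph1 have no other probe sets. In KO tumor against KO gland the count of 0 became 1 with an offset of 1 (Hspb1), 4 with median centring, 2 with the mean over all probe sets, and 2 without shared probe sets. The member median in KO gland against WT gland was -0.29 with median centring, beside -0.04 as reported. Median centring moved the median of all genes to -0.23 in the gland genotypes, 0.12 in WT tumor against WT gland and 0.34 in KO tumor against KO gland. The other member medians moved by less than the gap between probe sets, in ranges of 0.00 to 0.20 for the tumor genotypes, 0.06 to 0.49 for WT tumor against WT gland and 0.13 to 0.86 for KO tumor against KO gland. With 1 array per group, differences under the gap between probe sets cannot be told from none.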

Other observations

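Chaperones of the endoplasmic reticulum, the relatives of the cytosolic family in the secretory pathway, were set beside them. Hsp90b1, the Hsp90 of that compartment, had 5733 in KO tumor and 3788 in WT tumor, and 4349 in KO gland and 5369 in WT gland. It was 1.51-fold higher in KO tumor and 1.23-fold lower in KO gland, the same directions as Hspe1. Hspa5, its Hsp70, had 7330 in KO tumor and 6995 in WT tumor, against 4620 in KO gland and 4923 in WT gland. None of the 12 measured genes passed 2-fold between genotypes, and the difference of differences was above 0 for 6 of 12, beside 50.3% of all genes. Pdia3, a disulfide isomerase, was past 2-fold higher in the tumors of both genotypes, with 4832 in KO tumor and 4972 in WT tumor, against 2304 in KO gland and 1878 in WT gland. In WT tumor against WT gland Pdia4, a related isomerase, was past 2-fold higher (980 and 450) and Hyou1, an Hsp110 of that compartment, past 2-fold lower (409 and 886). In wild type 2 of 12 were thus higher (13.1% of all genes) and 1 of 12 lower (16.7%). In the knockout 1 of 12 was higher (12.6%) and 0 lower (18.0%). Serpinh1, the collagen chaperone, had 4095 in KO tumor and 4701 in WT tumor, and 4861 in KO gland and 3664 in WT gland.

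Only Hspb1 spanned 2-fold over the 4 arrays by its main probe set. The genes nearest to its pattern, by root mean square distance of log2 values centred on their own mean over 4 arrays, were Ppie at 0.016 and Ifit1 at 0.023. Ifit1 had 1436 in KO tumor and 1433 in WT tumor, against 695 in KO gland and 699 in WT gland. With 4 points such likeness says little, and 124 of 8277 genes lay within 0.1.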
